A study of Mus musculus with 16 samples.

Results

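The transcripts described here are 42 mouse genes of the interferon response and of antigen presentation by major histocompatibility complex (MHC) class I molecules, a set listed by gene name with earlier results of these data known. Each gene was read from the array probe set that mapped to exactly 1 gene symbol and had the highest mean, and 39 of the 42 were measured among 12393 genes in all. Isg15, Xaf1 and H2-T23 were not measured in this way. Guanylate-binding protein genes were left out by the rule. The 39 comprise 7 regulators, 4 RNA sensing genes, 13 antiviral effectors, 9 antigen presentation genes, 4 immunity-related GTPases and 2 secreted factors.

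The study perturbed Tgif1 and Tgif2, which encode homeodomain repressors, in mouse J1 embryonic stem (ES) cells, an established line grown on gelatin with serum and leukaemia inhibitory factor. RNA was hybridized to 16 Affymetrix Mouse 430A 2.0 arrays in 5 groups. In the knockdown arm, 2 arrays held Tgif1 KD cells and 2 held cells with a control hairpin (shControl). In the overexpression arm, 4 arrays were labelled Tgif1 OE, 4 were labelled Tgif2 OE, and 4 held control cells that express BirA, a bacterial biotin ligase. All groups share the J1 background. The sources used here name no promoter, vector, time after the perturbation or number of clones. Nothing in the labels says that replicates came from separate cultures, so a p-value here covers only the spread among arrays, which may be technical.

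Interferons are secreted signals that cells release on sensing viral nucleic acid. Type I interferons act through receptor-bound kinases on a DNA-binding complex that holds Stat2 and Irf9, and interferon gamma induces Irf1, so that antiviral effectors and the genes for peptide cleavage, transport and display are switched on together. Mouse ES cells are known for a weak interferon response and for little MHC class I on their surface.

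All values are log2 probe set signals, and a change is a difference of group means on that scale with its standard error from limma. A gene was called when its Benjamini-Hochberg adjusted p over all 12393 genes was under 0.05. Groups without overlap are also described, which is common with few arrays. In Tgif1 KD cells 3721 of all 12393 genes lay wholly above and 4849 wholly below shControl. Against BirA these counts were 1546 and 1316 for Tgif1 OE, 3270 and 772 for Tgif2 OE, and 3377 and 2057 for shControl. For Tgif1 OE against Tgif2 OE they were 335 and 2678. Separation by itself is therefore no call. In RNA from whole cultures, fewer cells that express a gene and less RNA per cell cannot be told apart.

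The Tgif1 probe set read 7.46 and 7.12 on the Tgif1 KD arrays, against 10.71 and 10.66 on the shControl arrays, a change of -3.39 ± 0.10 (adjusted p = 3.88e-11). The same probe set was lower, not higher, on the arrays labelled Tgif1 OE than on the BirA arrays (-0.58 ± 0.07, adjusted p = 5.52e-05). The Tgif2 probe set was not called on the arrays labelled Tgif2 OE (0.11 ± 0.07, adjusted p = 0.208). It was higher in Tgif1 KD cells (0.81 ± 0.09, limma adjusted p = 1.6e-05) and lower on the arrays labelled Tgif1 OE (-0.45 ± 0.07, 0.000186). On the arrays labelled Tgif2 OE the Tgif1 probe set was lower than on BirA (-0.42 ± 0.07, 0.000457). Whether these probe sets detect RNA of an introduced gene is not known here, so the values do not show whether the overexpression worked. The overexpression groups are therefore named here by their labels alone. The median change of all genes on the arrays labelled Tgif2 OE was 0.12 against BirA, so their changes are also given relative to that median. Replicates 3 and 4 stood apart from replicates 1 and 2 in the 3 groups of the overexpression arm, and values within each of these pairs are given where they differ. Markers of ES cells were above the median of all genes for 10 of 10 genes in every group, and 6 of the 10 were called lower on the arrays labelled Tgif1 OE than on BirA. The mean level of 15 fibroblast markers ran from 5.88 to 6.22 on the arrays labelled Tgif1 OE and from 5.83 to 6.20 on those labelled Tgif2 OE, against 5.40 to 5.63 on BirA arrays. Tgif1 KD arrays gave 5.75 to 5.79 and shControl arrays 5.81 to 5.85 for the same markers. Of these 15 markers, 6 were called higher and 1 lower for Tgif1 OE, and 7 higher and 0 lower for Tgif2 OE. In each of these 2 comparisons 3 were higher by at least 1. The largest change was 3.48 for Tgif1 OE and 2.57 for Tgif2 OE. The mean of 11 blood cell markers ran from 5.12 to 5.23 on the arrays labelled Tgif1 OE and from 5.12 to 5.24 on those labelled Tgif2 OE, against 5.21 to 5.37 on BirA arrays. It ran from 5.51 to 5.52 on Tgif1 KD arrays and from 5.39 to 5.45 on shControl arrays. The mean of 10 trophectoderm markers ran from 6.47 to 6.86 on the arrays labelled Tgif1 OE and from 6.32 to 6.84 on those labelled Tgif2 OE, against 5.92 to 6.03 on BirA arrays, with 4 of 10 called higher and 1 lower for Tgif1 OE and 7 higher and 1 lower for Tgif2 OE. Among these, the keratins Krt8 and Krt18 were higher by 2.79 and 2.86 for Tgif1 OE (adjusted p = 7.37e-05 and 0.000133) and by 1.81 and 2.14 for Tgif2 OE (0.00138 and 0.000847). Trophectoderm markers gave 6.06 on both Tgif1 KD arrays and 6.21 to 6.22 on shControl arrays. Of 8 endothelial markers, 0 were called higher and 2 lower for Tgif1 OE and 1 higher and 1 lower for Tgif2 OE. Of 10 primitive endoderm markers, 1 was higher and 1 lower for Tgif1 OE and 4 higher and 2 lower for Tgif2 OE. Of all genes, 11.4% were called higher and 9.51% lower for Tgif1 OE and 28.7% and 6.69% for Tgif2 OE. In Tgif1 KD cells the calls higher and lower were 2 and 0 for ES cell, 2 and 1 for fibroblast and 1 and 0 for blood cell markers. They were 2 and 0 for endothelial, 1 and 1 for trophectoderm and 3 and 0 for primitive endoderm markers, beside 12.5% and 12.9% of all genes. In the knockdown arm the Gapdh 5′ control probe set lay 0.10 and 0.08 below the 3′ one on Tgif1 KD arrays, against 0.21 and 0.22 on shControl arrays. The same 5′ minus 3′ difference was -0.24, -0.34, -0.02 and -0.08 on the arrays labelled Tgif1 OE and -0.17, -0.19, -0.04 and -0.06 on those labelled Tgif2 OE, against -0.11, -0.13, -0.05 and -0.04 on BirA arrays. The part of these markers and of RNA quality in the results was not tested.

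Genes of antigen presentation were mostly higher on the arrays labelled Tgif1 OE and Tgif2 OE, and those of the immunoproteasome were lower in Tgif1 KD cells. After the knockdown 11 of the 39 measured genes were called, 2 higher and 9 lower, beside 25.4% of all genes called, 12.5% higher and 12.9% lower. That is 28.2% of the set, so its share of calls lay near that of all genes, while its median change of -0.18 lay below the all-gene median of -0.05. The count was 5 without Tgif1 KD 1, 6 without Tgif1 KD 2, 6 without shControl 1 and 7 without shControl 2, where the lone array of a group was assumed to vary like those of the 4 other groups. In the overexpression arm 20 of 39 were called on arrays labelled Tgif1 OE, 16 higher and 4 lower, beside 20.9% of all genes (11.4% higher and 9.51% lower), and the median change was 0.21 against 0.01 for all genes. On the arrays labelled Tgif2 OE 18 of 39 were called, 16 higher and 2 lower, beside 35.4% of all genes (28.7% higher and 6.69% lower), and the median change was 0.26 against 0.12. After quantile normalization the last count became 15, with 12 higher and 3 lower, beside 27.2% of all genes (13% higher and 14.1% lower). With replicate numbers as a block it became 26, with 22 higher and 4 lower, beside 46.4% of all genes (36.9% higher and 9.55% lower). That block assumes a pairing by replicate number, which a check of the arrays did not show. With array pairs as a random block the Tgif2 OE count became 12, with 12 higher and 0 lower, beside 20.1% of all genes (16.3% higher and 3.83% lower), and the Tgif1 OE count became 14, with 12 higher and 2 lower, beside 11.5% of all genes (6.47% higher and 4.98% lower). The arrays labelled Tgif1 OE and Tgif2 OE were both set against the same 4 BirA arrays, so their changes share that control.

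**Figure D1:**
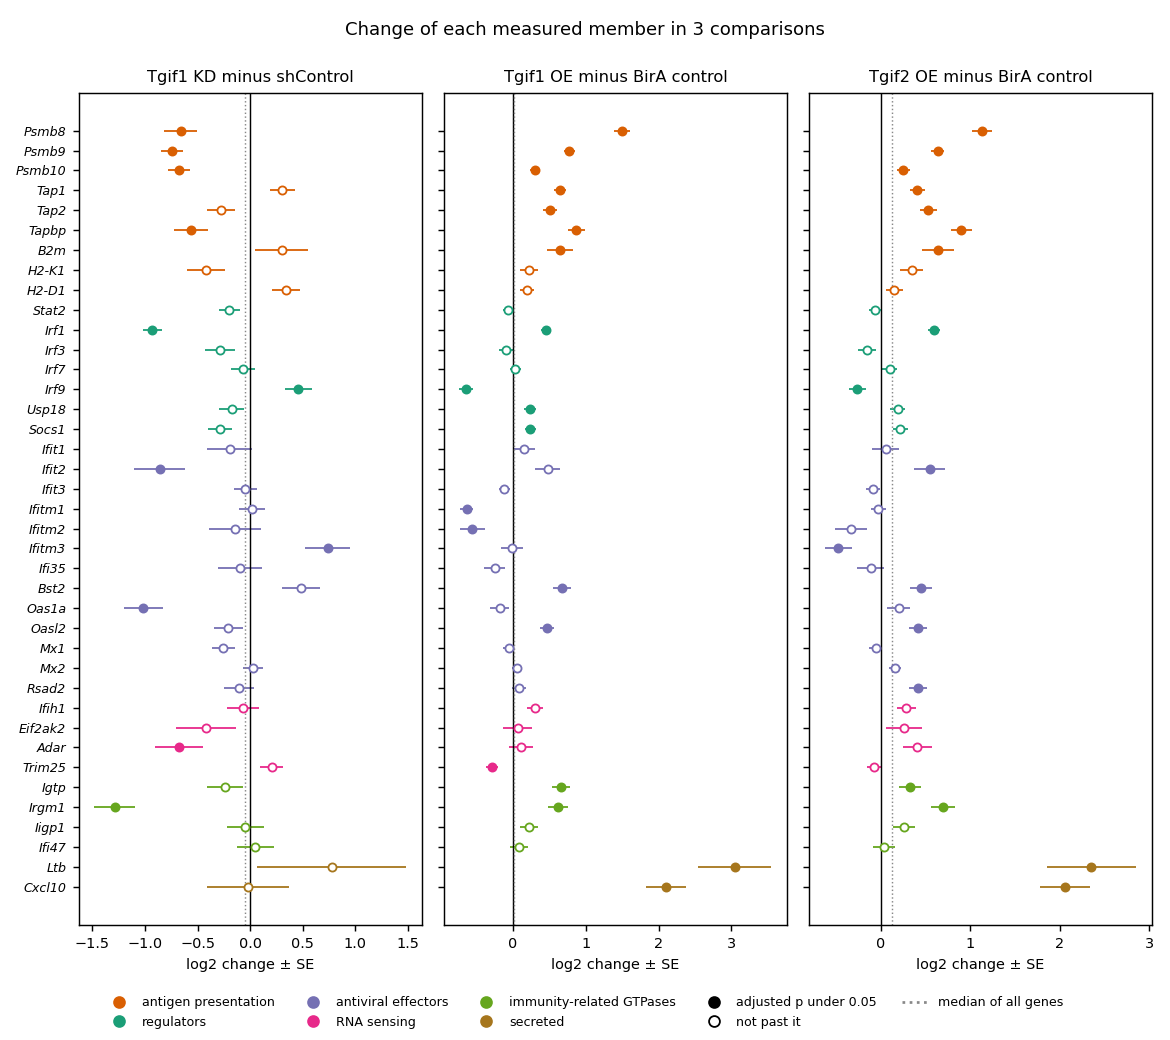
Change of each of the 39 measured genes, grouped by role, in log2 units with bars of 1 standard error, for Tgif1 KD against shControl, for arrays labelled Tgif1 OE against BirA and for arrays labelled Tgif2 OE against BirA. Filled points have an adjusted p under 0.05 and dotted lines mark the median change of all genes. Ltb and Cxcl10 stand far to the right in the overexpression panels at 3.05 and 2.10 for Tgif1 OE and 2.35 and 2.06 for Tgif2 OE, and Irgm1 is the lowest point of the knockdown panel at -1.29.

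Promoters of 6 of these genes are shown because their transcripts carry the results below: the transcription factor Irf1, the immunoproteasome subunits Psmb8 and Psmb9, the class I light chain B2m, the GTPase Irgm1 and the chemokine Cxcl10. The sequences are the 250 bases before the RefSeq start of each gene in GRCm38.p6, read 5′ to 3′ on the gene's strand. Irf1 lies at chr11:53769764-53770013 on the plus strand, Psmb8 at chr17:34197945-34198194 on the plus strand, Psmb9 at chr17:34187331-34187580 on the minus strand, B2m at chr2:122147437-122147686 on the plus strand, Irgm1 at chr11:48871421-48871670 on the minus strand and Cxcl10 at chr5:92348890-92349139 on the minus strand. Capitals mark matches, on either strand, to GAAANNGAAA (core letters of the element bound by the complex with Irf9 and by other Irf proteins), to TTCNNNGAA (letters bound by Stat family proteins) or to the NF-kB motif.
Irf1: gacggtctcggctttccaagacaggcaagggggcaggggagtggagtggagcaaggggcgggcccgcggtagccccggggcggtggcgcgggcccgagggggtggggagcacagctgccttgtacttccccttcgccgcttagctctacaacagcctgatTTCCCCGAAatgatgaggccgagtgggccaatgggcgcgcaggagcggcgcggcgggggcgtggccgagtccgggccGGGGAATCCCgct
Psmb8: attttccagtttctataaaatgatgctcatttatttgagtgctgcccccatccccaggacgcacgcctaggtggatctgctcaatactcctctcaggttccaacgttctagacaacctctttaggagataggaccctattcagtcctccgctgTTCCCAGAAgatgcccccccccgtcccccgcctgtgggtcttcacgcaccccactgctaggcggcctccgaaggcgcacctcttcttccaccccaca
Psmb9: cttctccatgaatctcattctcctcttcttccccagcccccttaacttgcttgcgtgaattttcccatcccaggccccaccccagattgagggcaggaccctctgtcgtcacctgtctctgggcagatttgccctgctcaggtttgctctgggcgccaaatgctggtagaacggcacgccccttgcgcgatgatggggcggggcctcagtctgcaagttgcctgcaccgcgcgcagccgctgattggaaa
B2m: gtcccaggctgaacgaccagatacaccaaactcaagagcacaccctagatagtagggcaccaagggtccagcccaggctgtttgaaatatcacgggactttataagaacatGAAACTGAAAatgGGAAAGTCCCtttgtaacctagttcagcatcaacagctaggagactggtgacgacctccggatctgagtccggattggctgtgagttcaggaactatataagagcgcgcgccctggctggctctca
Irgm1: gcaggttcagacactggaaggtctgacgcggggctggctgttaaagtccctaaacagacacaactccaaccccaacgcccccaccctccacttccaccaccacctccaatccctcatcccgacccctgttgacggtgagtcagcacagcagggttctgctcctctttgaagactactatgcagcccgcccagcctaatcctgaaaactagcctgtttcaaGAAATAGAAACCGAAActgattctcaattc
Cxcl10: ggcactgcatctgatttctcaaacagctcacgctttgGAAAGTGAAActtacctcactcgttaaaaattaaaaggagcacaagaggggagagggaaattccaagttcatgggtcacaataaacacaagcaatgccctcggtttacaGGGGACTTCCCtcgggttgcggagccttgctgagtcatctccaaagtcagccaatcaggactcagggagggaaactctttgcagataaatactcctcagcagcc

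The Irf1 window held a TTCNNNGAA match at -90 and an NF-kB match at -13, where positions give a match's first base and -1 is the last base before the start. The Psmb8 window held TTCNNNGAA at -97. B2m held GAAANNGAAA at -139 and NF-kB at -126, Cxcl10 held GAAANNGAAA at -213 and NF-kB at -104, and Irgm1 held 2 overlapping GAAANNGAAA matches, the first at -30. The Psmb9 window held none of them. It overlaps the window of Tap1, the neighbouring gene on the opposite strand, by 225 bases, and the 2 starts lie 226 bases apart. RefSeq windows were found for 34 of the measured genes, 40 windows in all. GAAANNGAAA was in 30% of them, against 2.74% of 12566 windows of all measured genes. TTCNNNGAA was in 20%, against 6%, and the NF-kB motif was in 22.5%, against 6.14%. The letters CTGTCAA, which TGIF proteins bind, were in 0 of the 40 windows, against 2.86% of the windows of all measured genes. With only 40 windows, 0 lies near that low share and is not read as a difference. Matches to different motifs overlapped in the windows of Bst2 and Ifit2. A match describes letters only and was not tested as a binding site, and its absence says only that these letters are not in this window.

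Among the regulators, Irf1 moved in opposite directions in the 2 arms. Irf1 is a transcription factor that switches on immunoproteasome and class I genes. It read 8.11 and 8.01 on Tgif1 KD arrays, against 8.95 and 9.03 on shControl arrays, and 9.45, 9.44, 9.36 and 9.37 on the arrays labelled Tgif1 OE and 9.45, 9.46, 9.59 and 9.69 on those labelled Tgif2 OE, against 8.83, 8.98, 9.04 and 8.99 on BirA arrays. Each group lay wholly apart from its control, below it in the knockdown arm and above it in the overexpression arm. Irf1 fell by 0.93 ± 0.09 in Tgif1 KD cells (adjusted p = 4.22e-06). It rose by 0.45 ± 0.07 on the arrays labelled Tgif1 OE (adjusted p = 0.000187). On those labelled Tgif2 OE it rose by 0.59 ± 0.07 (adjusted p = 1.22e-05), or 0.47 relative to the median of all genes. These 3 calls held under every alternative processing tried, including the removal of any single array.

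Irf9, the DNA-binding subunit of the complex that holds Stat2, went the other way. It read 7.25 and 7.23 on Tgif1 KD arrays, against 6.77 and 6.79 on shControl arrays, and it rose by 0.46 ± 0.13 (adjusted p = 0.0183). Removing any 1 of the 4 arrays of that arm ended this call, at adjusted p of 0.0743 to 0.086. It read 6.52, 6.36, 6.28 and 6.19 on the arrays labelled Tgif1 OE and 6.78, 6.93, 6.59 and 6.57 on those labelled Tgif2 OE, against 7.03, 7.15, 6.85 and 6.90 on BirA arrays. All 4 arrays labelled Tgif1 OE lay below all 4 BirA arrays, while those labelled Tgif2 OE overlapped BirA. The change was -0.64 ± 0.09 for Tgif1 OE (adjusted p = 0.000181), a call that held under every alternative. For Tgif2 OE it was -0.26 ± 0.09 (adjusted p = 0.0384), or -0.38 relative to the median, and it was lost without BirA 1, BirA 2, Tgif2 OE 3 or Tgif2 OE 4 at adjusted p of 0.0845 to 0.116. It was also lost with array pairs as a random block (0.124), with only the groups compared (0.0796) and within replicates 1 and 2 (0.0511).

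Stat2, the partner of Irf9 in the type I interferon complex, was not called in either arm. It read 6.08 and 6.28 on Tgif1 KD arrays, against 6.37 and 6.39 on shControl arrays, a difference of -0.20 ± 0.10 (adjusted p = 0.173). It read 5.69, 5.44, 5.52 and 5.37 on the arrays labelled Tgif1 OE and 5.51, 5.53, 5.44 and 5.53 on those labelled Tgif2 OE, against 5.65, 5.53, 5.60 and 5.51 on BirA arrays. Both KD arrays lay below both shControl arrays, and the 3 groups of the overexpression arm overlapped. Irf3, the factor that nucleic acid sensors activate to induce interferon genes, read 8.48 and 8.37 in Tgif1 KD cells, against 8.70 and 8.72 in shControl cells. Its values were 8.31, 8.26, 8.49 and 8.43 on the arrays labelled Tgif1 OE and 8.16, 8.11, 8.41 and 8.54 on those labelled Tgif2 OE, against 8.29, 8.37, 8.60 and 8.60 on BirA arrays. None of these differences passed. That of Tgif2 OE (-0.16 ± 0.10) passed in 4 of 19 alternatives, among them replicate numbers as a block, at adjusted p = 0.032. Irf7, which sustains type I interferon production, lay among the dimmest 33.3% of all genes. It read 4.33 and 4.57 in Tgif1 KD cells, against 4.34 and 4.70 in shControl cells, and 4.51, 4.56, 4.65 and 4.56 on the arrays labelled Tgif1 OE and 4.63, 4.65, 4.67 and 4.59 on those labelled Tgif2 OE, against 4.56, 4.38, 4.58 and 4.64 on BirA arrays. Its groups overlapped in each of these comparisons, and none was called.

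The feedback inhibitors Usp18, which dampens receptor signalling and removes Isg15 from proteins, and Socs1, which blocks Jak kinases, were as dim. Usp18 changed by 0.24 ± 0.08 (adjusted p = 0.0495) and Socs1 by 0.24 ± 0.08 (adjusted p = 0.0489) on the arrays labelled Tgif1 OE. Both calls were lost in most single-array removals: Usp18 without BirA 1, 2 or 4 or Tgif1 OE 1, 2 or 3, at 0.0529 to 0.155, and Socs1 without any 1 of the 8 arrays other than Tgif1 OE 2, at 0.073 to 0.118. Both also ended after quantile normalization (0.0792 for Usp18 and 0.193 for Socs1) and with array pairs as a random block (0.283 and 0.218). Neither was called in Tgif1 KD cells or on the arrays labelled Tgif2 OE, where both passed with replicate numbers as a block (adjusted p = 0.0479 for Usp18 and 0.0383 for Socs1).

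Of the 4 RNA sensing genes, 1 was called lower in Tgif1 KD cells, 1 was called lower on the arrays labelled Tgif1 OE and 0 were called by limma on those labelled Tgif2 OE, where 2 had an unadjusted p under 0.05. The shares of all genes called lower were 12.9%, 9.51% and 6.69% in these 3 comparisons. Adar, which edits adenosines in double-stranded RNA, read 7.13 and 7.34 on Tgif1 KD arrays, against 7.86 and 7.96 on shControl arrays. The KD arrays were the lower ones, without overlap, and the change was -0.68 ± 0.23 (adjusted p = 0.0393). That call was lost without any 1 of the 4 arrays, at adjusted p of 0.0775 to 0.205. Trim25, a ubiquitin ligase in RIG-I signalling, was lower by 0.29 ± 0.08 on the arrays labelled Tgif1 OE (adjusted p = 0.0138), a call that a random block for array pairs ended (adjusted p = 0.052). Ifih1, the sensor of long double-stranded RNA, and Eif2ak2, the kinase that halts translation on binding it, were not called in these 3 comparisons. With replicate numbers as a block, Ifih1 passed on the arrays labelled Tgif1 OE (adjusted p = 0.0407) and on those labelled Tgif2 OE (0.0405), and Eif2ak2 (0.00199) and Adar (0.00271) passed on those labelled Tgif2 OE as well.

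The 13 measured antiviral effectors had no common direction. In Tgif1 KD cells 1 was called higher, 2 lower and 10 did not pass. The counts were 2, 2 and 9 on the arrays labelled Tgif1 OE and 4, 1 and 8 on those labelled Tgif2 OE, and 6 of the 13 lay among the dimmest 33.3% of all genes. Of all genes, 12.5% were called higher and 12.9% lower in Tgif1 KD cells. Those shares were 11.4% and 9.51% for Tgif1 OE and 28.7% and 6.69% for Tgif2 OE. Oas1a, a synthetase whose product activates RNase L, read 8.38 and 8.45 on Tgif1 KD arrays, against 9.43 and 9.44 on shControl arrays. Both KD arrays were lower than both controls, and the fall of 1.02 ± 0.19 (adjusted p = 0.000817) held under every alternative. In the overexpression arm Oas1a read 8.94, 8.93, 8.92 and 8.95 on the arrays labelled Tgif1 OE and 9.52, 9.48, 9.10 and 9.15 on those labelled Tgif2 OE, against 8.81, 8.87, 9.35 and 9.44 on BirA arrays. BirA replicates 3 and 4 were the high arrays of their group, and Tgif2 OE replicates 3 and 4 the low arrays of theirs. Neither comparison was called over all replicates (0.20 ± 0.13 for Tgif2 OE, adjusted p = 0.259), and the Tgif2 OE difference was 0.66 within replicates 1 and 2 and -0.27 within replicates 3 and 4 (adjusted p = 0.00772). The Tgif1 OE difference was 0.09 and -0.46 in the same pairs.

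Ifit2, an antiviral tetratricopeptide repeat protein, read 5.07 and 4.97 on Tgif1 KD arrays, against 6.0 and 5.75 on shControl arrays, with no overlap. It fell by 0.86 ± 0.24 (adjusted p = 0.0171), a call lost without shControl 1 (0.12), Tgif1 KD 1 (0.0605) or Tgif1 KD 2 (0.0924). It read 6.46, 6.41, 6.87 and 6.85 on the arrays labelled Tgif1 OE and 6.30, 6.66, 6.81 and 7.09 on those labelled Tgif2 OE, against 5.90, 5.92, 6.50 and 6.36 on BirA arrays, and the groups overlapped. On the arrays labelled Tgif2 OE the change of 0.54 ± 0.17 passed (adjusted p = 0.0238, 0.42 relative to the median), but not after quantile normalization (0.0909), with array pairs as a random block (0.0725) or with only the groups compared (0.0543), nor without BirA 1, BirA 2, Tgif2 OE 3 or Tgif2 OE 4 (0.0568 to 0.0779). On those labelled Tgif1 OE the change of 0.48 ± 0.17 did not pass (0.0633), and with replicate numbers as a block it did (0.00145).

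Bst2, the tetherin that holds budding virus on the cell surface, read 9.12, 9.17, 9.45 and 9.43 on the arrays labelled Tgif1 OE and 8.77, 8.93, 9.24 and 9.34 on those labelled Tgif2 OE, against 8.87, 8.67, 8.54 and 8.41 on BirA arrays. The arrays labelled Tgif1 OE lay above all BirA arrays, and those labelled Tgif2 OE overlapped them. The rise was 0.67 ± 0.13 for Tgif1 OE (adjusted p = 0.00141) and 0.45 ± 0.13 for Tgif2 OE (adjusted p = 0.0127, 0.33 relative to the median). Within replicates 1 and 2 it was 0.37 for Tgif1 OE and 0.08 for Tgif2 OE, and within replicates 3 and 4 it was 0.97 and 0.82. The Tgif2 OE call was absent within replicates 1 and 2 (adjusted p = 0.488) and after quantile normalization (0.0813). Bst2 read 8.59 and 8.57 on Tgif1 KD arrays, against 8.09 and 8.10 on shControl arrays, a change of 0.48 ± 0.18 that did not pass (adjusted p = 0.0607). This rise passed in 5 of 14 alternatives, among them only the groups compared (limma adjusted p = 0.00518).

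The Ifitm proteins, which keep viruses from fusing with cell membranes, were lower or mixed. Ifitm1 read 12.13, 12.09, 11.83 and 11.87 on the arrays labelled Tgif1 OE and 12.43, 12.42, 12.71 and 12.76 on those labelled Tgif2 OE, against 12.59, 12.58, 12.61 and 12.66 on BirA arrays. The arrays labelled Tgif1 OE were the low ones, all below BirA, with a change of -0.64 ± 0.09 (adjusted p = 0.000107), and those labelled Tgif2 OE overlapped BirA (-0.03 ± 0.09, adjusted p = 0.813). Ifitm1 read 12.16 and 12.11 in Tgif1 KD cells, against 12.12 and 12.12 in shControl cells, and was not called. Ifitm3 read 10.22 and 10.11 on Tgif1 KD arrays, against 9.44 and 9.42 on shControl arrays, and was higher on both KD arrays. Its rise of 0.74 ± 0.21 (adjusted p = 0.02) was lost without any 1 of those 4 arrays, at 0.0612 to 0.112. In the other arm Ifitm3 read 9.71, 9.61, 9.92 and 9.84 on the arrays labelled Tgif1 OE and 8.99, 8.90, 9.65 and 9.69 on those labelled Tgif2 OE, against 9.75, 9.94, 9.70 and 9.76 on BirA arrays. All 4 arrays labelled Tgif2 OE read below BirA, replicates 1 and 2 clearly and replicates 3 and 4 barely. The change of -0.48 ± 0.15 (adjusted p = 0.0232) was -0.90 within replicates 1 and 2 and -0.06 within replicates 3 and 4, and the call ended without BirA 2, Tgif2 OE 1 or Tgif2 OE 2 (0.0647 to 0.0742), with array pairs as a random block (0.0517), with only the groups compared (0.0721) and within replicates 3 and 4 (0.463). Ifitm2 was lower by 0.56 ± 0.18 on the arrays labelled Tgif1 OE (adjusted p = 0.0369), a call lost without BirA 1, BirA 2, Tgif1 OE 3 or Tgif1 OE 4 (0.099 to 0.118), with only the groups compared (0.0551) and with array pairs as a random block (0.0707). On those labelled Tgif2 OE its change of -0.34 ± 0.18 did not pass (adjusted p = 0.153). It passed in 4 of 19 alternatives, among them replicate numbers as a block (adjusted p = 0.00107).

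Rsad2, the radical enzyme viperin, and Oasl2, a relative of the oligoadenylate synthetases, were both dim. Rsad2 read 4.88, 4.87, 5.19 and 5.14 on the arrays labelled Tgif2 OE, against 4.38, 4.60, 4.81 and 4.62 on BirA arrays, all above BirA; it rose by 0.41 ± 0.10 (adjusted p = 0.00445, 0.30 relative to the median), and this call held under every alternative. On the arrays labelled Tgif1 OE it read 4.73, 4.59, 4.78 and 4.67 and was not called. Oasl2 was higher by 0.47 ± 0.10 on the arrays labelled Tgif1 OE (adjusted p = 0.0032) and by 0.41 ± 0.10 on those labelled Tgif2 OE (adjusted p = 0.00487). Within replicates 1 and 2 alone these calls ended, at adjusted p of 0.0703 and 0.0833, as they did with array pairs as a random block (0.0606 and 0.0688), and that of Tgif2 OE also ended with columns shifted to one median (0.0622). Ifit1, Ifit3, Ifi35, Mx1 and Mx2, further interferon-induced proteins, were not called in these 3 comparisons.

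Antigen presentation genes were mostly higher in the overexpression arm, and some were lower after the knockdown. Of 9 measured, 7 were called higher and 0 lower on the arrays labelled Tgif1 OE, with a median change of 0.64, and 7 higher and 0 lower on those labelled Tgif2 OE, with a median of 0.53, or 0.41 relative to the median of all genes. In Tgif1 KD cells 4 were called lower and 0 higher, with a median of -0.42. Beside these stand all-gene shares of 11.4% higher and 9.51% lower for Tgif1 OE and 28.7% and 6.69% for Tgif2 OE. For Tgif1 KD the shares were 12.5% higher and 12.9% lower. Of the 9, 0 lay among the dimmest 33.3% of all genes.

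Psmb8, Psmb9 and Psmb10 are the inducible catalytic subunits that turn the proteasome into the immunoproteasome, which cuts peptides fit for class I molecules. Psmb8 read 4.49 and 4.76 on Tgif1 KD arrays, against 5.17 and 5.40 on shControl arrays. It read 7.10, 7.09, 7.19 and 7.18 on the arrays labelled Tgif1 OE and 6.66, 6.47, 6.92 and 7.06 on those labelled Tgif2 OE, against 5.61, 5.57, 5.80 and 5.59 on BirA arrays. The KD arrays lay below their controls and both overexpression groups above theirs, with no overlap. Psmb8 rose by 1.50 ± 0.11 on the arrays labelled Tgif1 OE, or 2.82-fold (adjusted p = 6.1e-07). On those labelled Tgif2 OE it rose by 1.13 ± 0.11 (adjusted p = 4.77e-06, 1.01 relative to the median). It fell by 0.66 ± 0.16 in Tgif1 KD cells (adjusted p = 0.00561), a call lost without shControl 2 (0.0695) or Tgif1 KD 1 (0.0741), while both overexpression calls held under every alternative.

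Psmb9 read 5.37 and 5.28 on Tgif1 KD arrays, against 6.09 and 6.05 on shControl arrays. It read 6.75, 6.62, 6.75 and 6.52 on the arrays labelled Tgif1 OE and 6.48, 6.39, 6.61 and 6.60 on those labelled Tgif2 OE, against 5.82, 5.80, 6.05 and 5.89 on BirA arrays. As for Psmb8, no group overlapped its control, and the knockdown and overexpression arrays lay on opposite sides. Psmb9 fell by 0.74 ± 0.11 in Tgif1 KD cells (adjusted p = 0.000102). It rose by 0.77 ± 0.07 for Tgif1 OE (adjusted p = 5.39e-06) and by 0.63 ± 0.07 for Tgif2 OE (adjusted p = 1.95e-05, 0.52 relative to the median). These 3 calls held under every alternative. Psmb10 was lower by 0.68 ± 0.10 in Tgif1 KD cells (adjusted p = 0.000195), which also held throughout. It was higher by 0.30 ± 0.07 for Tgif1 OE (adjusted p = 0.00836) and by 0.25 ± 0.07 for Tgif2 OE (adjusted p = 0.016). Relative to the median the Tgif2 OE change was 0.13, and the call was absent after quantile normalization (adjusted p = 0.29) and without BirA 1, BirA 2 or Tgif2 OE 4 (0.0529 to 0.0546). It was also absent with array pairs as a random block (0.0744), with only the groups compared (0.0588) and within replicates 3 and 4 (0.121). That of Tgif1 OE was absent within replicates 3 and 4 (0.109) and with the random block (0.0508).

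Tap1 and Tap2 form the transporter that carries peptides into the endoplasmic reticulum, and Tapbp encodes tapasin, which docks class I molecules to it. Tap1 read 6.60, 6.56, 6.56 and 6.53 on the arrays labelled Tgif1 OE and 6.17, 6.27, 6.27 and 6.57 on those labelled Tgif2 OE, against 6.05, 5.86, 5.93 and 5.82 on BirA arrays. All arrays of both overexpression groups lay above all BirA arrays, with changes of 0.64 ± 0.08 (adjusted p = 8.07e-05) and 0.41 ± 0.08 (adjusted p = 0.00188, 0.29 relative to the median). The Tgif2 OE call was absent within replicates 1 and 2 alone (adjusted p = 0.071). In the knockdown arm Tap1 read 6.29 and 6.09 on Tgif1 KD arrays, against 5.79 and 5.98 on shControl arrays, 0.31 ± 0.12 higher, and this did not pass (adjusted p = 0.0754). A second Tap1 probe set had smaller differences, with means of 5.43 for Tgif1 OE, 5.50 for Tgif2 OE and 5.31 on BirA arrays. Its means were 5.31 in Tgif1 KD and 5.31 in shControl cells, and the remaining Tap1 probe sets were dim, at 2.94. Tap2 was higher by 0.51 ± 0.10 for Tgif1 OE (adjusted p = 0.00148) and by 0.53 ± 0.10 for Tgif2 OE (adjusted p = 0.000754), the first of which ended within replicates 1 and 2 (0.0777).

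Tapbp read 7.22 and 7.29 on Tgif1 KD arrays, against 7.82 and 7.82 on shControl arrays. It read 8.77, 8.64, 8.47 and 8.49 on the arrays labelled Tgif1 OE and 8.72, 8.77, 8.52 and 8.47 on those labelled Tgif2 OE, against 7.89, 8.0, 7.45 and 7.54 on BirA arrays. Here too the KD arrays lay below and the overexpression arrays above their controls. The fall of 0.56 ± 0.16 in Tgif1 KD cells (adjusted p = 0.0188) was lost without any 1 of the 4 arrays, at 0.0624 to 0.103. The rises of 0.87 ± 0.11 for Tgif1 OE (adjusted p = 8.36e-05) and 0.90 ± 0.11 for Tgif2 OE (adjusted p = 4.05e-05, 0.78 relative to the median) held under every alternative. A second Tapbp probe set had the same directions with smaller differences, with means of 5.41 in Tgif1 KD and 5.51 in shControl cells and of 5.87 on the arrays labelled Tgif1 OE and 5.75 on BirA arrays.

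B2m, the light chain shared by all class I molecules, read 8.89, 8.87, 9.31 and 9.31 on the arrays labelled Tgif1 OE and 8.75, 8.71, 9.44 and 9.46 on those labelled Tgif2 OE, against 8.28, 8.24, 8.63 and 8.65 on BirA arrays. Every array of both overexpression groups lay above every BirA array, with a rise of 0.64 ± 0.18 for Tgif1 OE (adjusted p = 0.017) and 0.64 ± 0.18 for Tgif2 OE (adjusted p = 0.0113, 0.52 relative to the median). Leaving out BirA 1 (0.0511), BirA 2 (0.0544), Tgif1 OE 3 (0.0544) or Tgif1 OE 4 (0.0559) took the Tgif1 OE call just past the threshold. B2m read 8.89 and 8.87 on Tgif1 KD arrays, against 8.68 and 8.48 on shControl arrays, so both KD arrays were the higher ones, and the change of 0.30 ± 0.25 did not pass (adjusted p = 0.43). That change passed in 3 of 14 alternatives, among them replicate numbers as a block (limma adjusted p = 0.0301).

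The class I heavy chains H2-K1 and H2-D1 were not called in any of these 3 comparisons. H2-K1 read 7.90 and 7.88 on Tgif1 KD arrays, against 8.30 and 8.31 on shControl arrays, and 8.44, 8.48, 8.26 and 8.34 on the arrays labelled Tgif1 OE and 8.61, 8.65, 8.35 and 8.39 on those labelled Tgif2 OE, against 8.55, 8.32, 7.86 and 7.91 on BirA arrays. H2-D1 read 8.88 and 8.73 on Tgif1 KD arrays, against 8.50 and 8.43 on shControl arrays, and 8.17, 8.21, 8.27 and 8.06 on the arrays labelled Tgif1 OE and 8.21, 8.18, 8.04 and 8.12 on those labelled Tgif2 OE, against 8.24, 8.10, 7.94 and 7.68 on BirA arrays. In the knockdown arm the KD arrays were thus low for H2-K1 (-0.42 ± 0.18, adjusted p = 0.107) and high for H2-D1 (0.34 ± 0.14, adjusted p = 0.0808). Each of these 2 changes passed in 4 of 14 alternatives, among them only the groups compared (limma adjusted p = 0.00713 and 0.0276). Class I genes are close relatives whose probe sets can bind one another's transcripts, and another H2-K1 probe set ran the opposite way, with means of 8.42 in Tgif1 KD and 8.15 in shControl cells where the one used gave 7.89 and 8.31. The heavy chain values are therefore uncertain. With replicate numbers as a block, H2-K1 passed for Tgif1 OE (adjusted p = 0.0491) and for Tgif2 OE (0.00361).

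**Figure D2:**
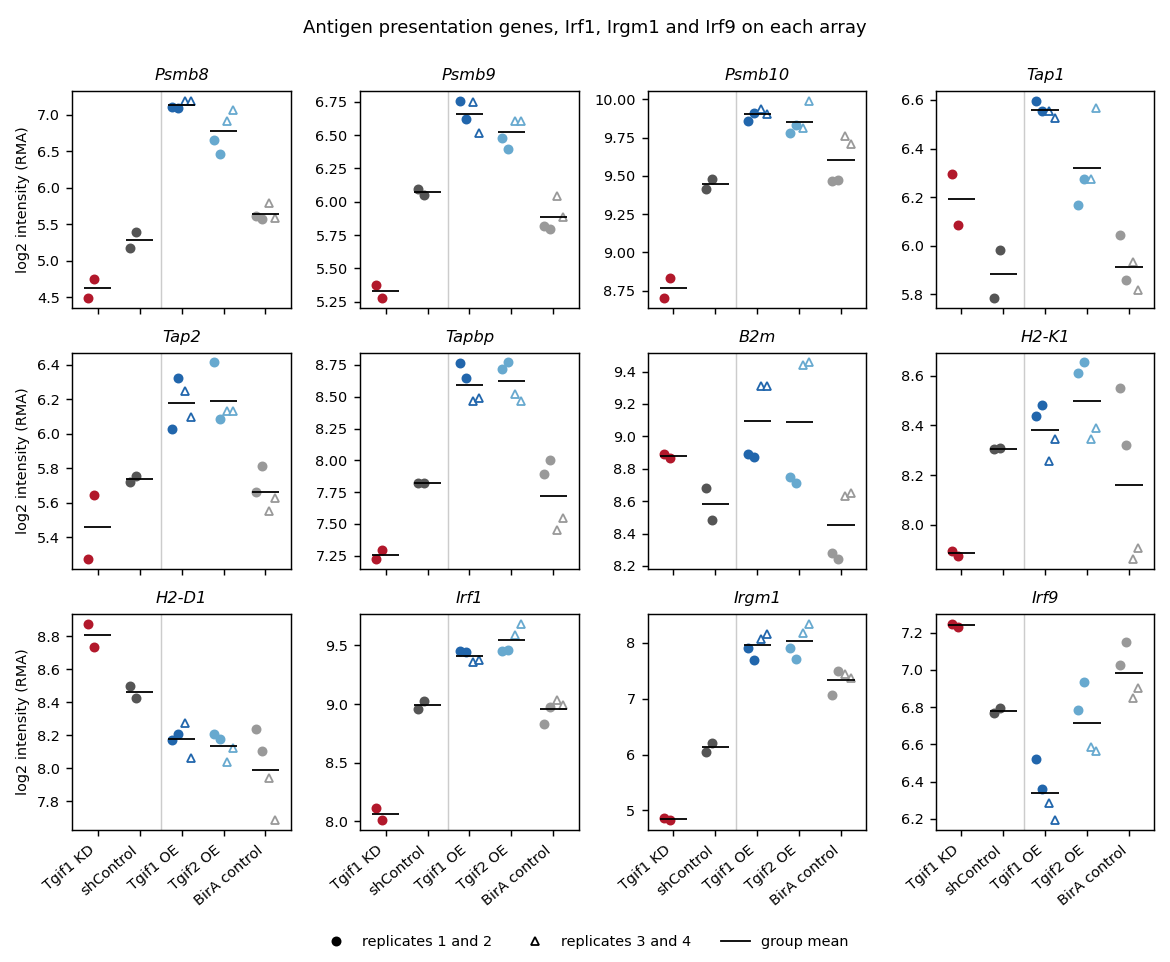
Log2 level on every array for 12 genes, with groups along each horizontal axis; filled circles are replicates 1 and 2, open triangles are replicates 3 and 4 and bars are group means. Psmb8 lies near 7.10 to 7.19 on the arrays labelled Tgif1 OE, against 5.57 to 5.80 on BirA arrays, and at 4.49 and 4.76 on Tgif1 KD arrays, against 5.17 and 5.40 on shControl arrays.

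Immunity-related GTPases act on the vacuoles of intracellular pathogens. Irgm1, their regulatory member, read 4.87 and 4.82 on Tgif1 KD arrays, against 6.05 and 6.21 on shControl arrays. It read 7.92, 7.70, 8.08 and 8.15 on the arrays labelled Tgif1 OE and 7.90, 7.71, 8.19 and 8.35 on those labelled Tgif2 OE, against 7.06, 7.50, 7.44 and 7.37 on BirA arrays. The groups did not overlap their controls, and the KD arrays were the low ones. The fall of 1.29 ± 0.19 in Tgif1 KD cells (adjusted p = 0.000162) left 0.409 times the control signal. The rises were 0.62 ± 0.14 for Tgif1 OE (adjusted p = 0.00435) and 0.69 ± 0.14 for Tgif2 OE (adjusted p = 0.00128, 0.57 relative to the median), and the calls in all 3 comparisons held under every alternative.

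Igtp, a GTPase of the same family, read 7.18, 7.37, 7.32 and 7.24 on the arrays labelled Tgif1 OE and 6.75, 6.67, 7.20 and 7.15 on those labelled Tgif2 OE, against 6.32, 6.64, 6.72 and 6.79 on BirA arrays. The arrays labelled Tgif1 OE were all above BirA and rose by 0.66 ± 0.12 (adjusted p = 0.00113), which held under every alternative. Those labelled Tgif2 OE overlapped BirA, and their change of 0.33 ± 0.12 (adjusted p = 0.0485, 0.21 relative to the median) was no longer called after quantile normalization (0.238), with array pairs as a random block (0.147), with only the groups compared (0.12), within replicates 1 and 2 (0.135) or without BirA 1, 2 or 3 or Tgif2 OE 3 or 4 (0.0512 to 0.154). It read 7.17 and 7.14 in Tgif1 KD cells, against 7.31 and 7.47 in shControl cells, and was not called. Iigp1 and Ifi47, also of this family, were dim and were not called in these comparisons.

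The secreted factors gave the highest changes of the set in the overexpression arm. Ltb encodes lymphotoxin beta, a ligand of the tumour necrosis factor family. It read 8.50, 8.59, 9.98 and 10.02 on the arrays labelled Tgif1 OE and 7.61, 7.37, 9.66 and 9.68 on those labelled Tgif2 OE, against 5.84, 5.96, 6.50 and 6.61 on BirA arrays. Every array of both overexpression groups lay above every BirA array, and within each of the 3 groups replicates 3 and 4 were the high ones. Ltb rose by 3.05 ± 0.50, or 8.26-fold, for Tgif1 OE (adjusted p = 0.00051). For Tgif2 OE it rose by 2.35 ± 0.50 (adjusted p = 0.00226, 2.24 relative to the median). Within replicates 1 and 2 the changes were 2.64 and 1.59 for Tgif1 OE and Tgif2 OE, and within replicates 3 and 4 they were 3.45 and 3.12. In the knockdown arm Ltb read 6.98 and 6.91 on Tgif1 KD arrays, against 6.12 and 6.22 on shControl arrays. The KD arrays were higher, by 0.77 ± 0.71, which did not pass (adjusted p = 0.482). That standard error pools the spread of all 5 groups. Replicates 3 and 4 read above replicates 1 and 2 by 1.46 for Tgif1 OE, 2.18 for Tgif2 OE and 0.66 on BirA arrays. With only the groups compared the knockdown change of Ltb passed (limma adjusted p = 0.00262). It also passed when the overexpression groups kept only replicates 1 and 2 (0.000316) or only replicates 3 and 4 (3.07e-05).

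Cxcl10, a chemokine that draws in T cells, read 5.92, 6.11, 7.06 and 7.21 on the arrays labelled Tgif1 OE and 6.14, 6.11, 6.95 and 6.92 on those labelled Tgif2 OE, against 4.72, 4.53, 4.24 and 4.39 on BirA arrays. The overexpression arrays were all above BirA, and their replicates 3 and 4 again read highest, while BirA replicates 3 and 4 read lowest. The rise was 2.10 ± 0.28 for Tgif1 OE (adjusted p = 8.36e-05) and 2.06 ± 0.28 for Tgif2 OE (adjusted p = 6.31e-05, 1.94 relative to the median). Within replicates 1 and 2 it was 1.38 for Tgif1 OE and 1.50 for Tgif2 OE, and within replicates 3 and 4 it was 2.82 and 2.62. Cxcl10 read 4.38 and 4.77 in Tgif1 KD cells, against 4.43 and 4.76 in shControl cells, with overlap and no call (adjusted p = 0.983). The 4 overexpression calls of Ltb and Cxcl10 held under every alternative.

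**Figure D3:**
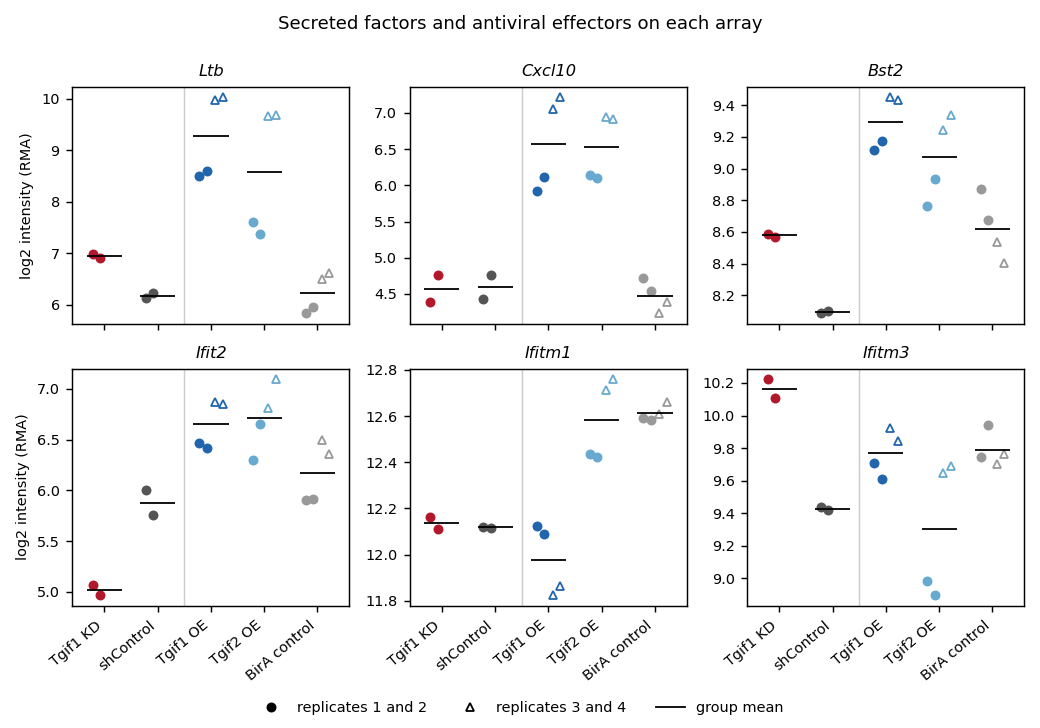
Log2 level on every array for Ltb, Cxcl10, Bst2, Ifit2, Ifitm1 and Ifitm3; filled circles are replicates 1 and 2, open triangles are replicates 3 and 4 and bars are group means. Ltb replicates 3 and 4 read 9.98 and 10.02 on the arrays labelled Tgif1 OE and 9.66 and 9.68 on those labelled Tgif2 OE, above replicates 1 and 2 of the same groups and above all BirA arrays.

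Tgif1 KD and Tgif1 OE were measured against different control arrays, so their calls can be set against each other. There were 7 genes of the set called in both, which is 63.6% of the 11 knockdown calls and 35% of the 20 Tgif1 OE calls. All 7 had opposite signs: Irf1, Psmb8, Psmb9, Psmb10, Tapbp and Irgm1 were lower in Tgif1 KD and higher on the arrays labelled Tgif1 OE, and Irf9 was the reverse. Among all genes 1076 were called in both, 34.2% of the knockdown calls and 41.6% of the Tgif1 OE calls, and 728 of them had opposite signs. Since the Tgif1 probe set was lower both in Tgif1 KD cells and on the arrays labelled Tgif1 OE, the overexpression label is not read here as a higher Tgif1 signal. The Tgif2 probe set was itself higher in Tgif1 KD cells (0.81) and lower on the arrays labelled Tgif1 OE (-0.45), and its part was not tested.

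A contrast of the Tgif1 KD effect minus the Tgif1 OE effect tested the difference itself. It called 20 of the 39 genes, 4 higher and 16 lower, beside 27.6% of all genes (13% higher and 14.6% lower), with a median of -0.34 for the set and -0.06 for all genes. The difference was -2.16 ± 0.19 for Psmb8 (adjusted p = 1.28e-06), -1.52 ± 0.13 for Psmb9 (8.33e-07) and -0.98 ± 0.13 for Psmb10 (4.1e-05). It was -1.43 ± 0.20 for Tapbp (7.36e-05), -1.38 ± 0.11 for Irf1 (6.15e-07) and -1.91 ± 0.24 for Irgm1 (2.62e-05). These genes, and Irf9, had already been called with opposite signs on the same arrays. For them the contrast gives the size of the difference and is no separate test. Cxcl10 also differed (-2.12 ± 0.48, adjusted p = 0.0039), and Ltb, whose difference was -2.27 ± 0.87, did not pass (0.0673). Irf9 differed in the other direction (1.10 ± 0.16, adjusted p = 0.000121). Of the 20 calls, 13 held under every alternative, and those of Irf1, Irf9, Ifit2, Psmb8, Psmb9, Psmb10, Tapbp, Irgm1 and Cxcl10 were among them.

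**Figure D4:**
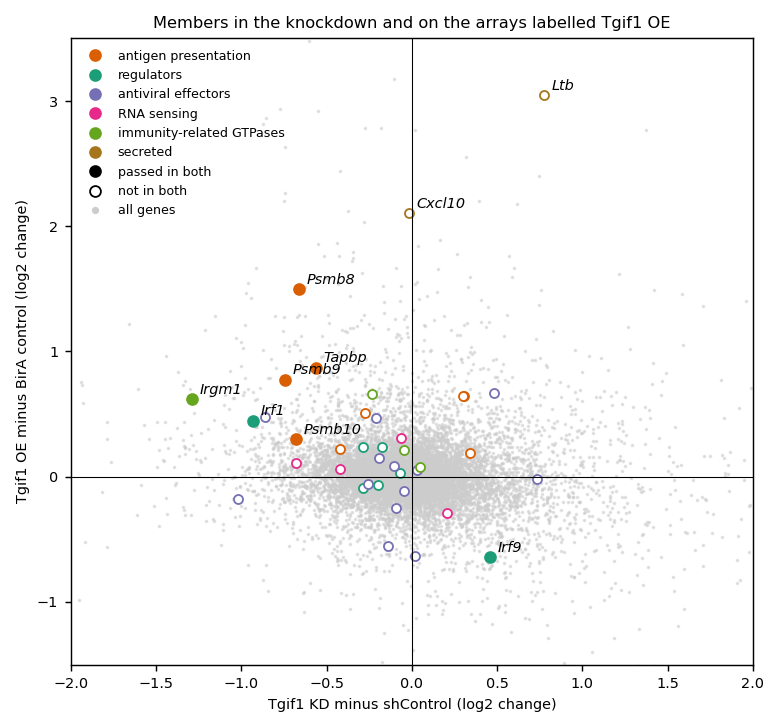
Log2 change in Tgif1 KD cells against shControl plotted against log2 change on the arrays labelled Tgif1 OE against BirA, for all genes in grey and the 39 measured genes of the set in colour, with 43 genes outside the axes. Psmb8, Psmb9, Tapbp, Irf1 and Irgm1 lie in the panel corner with a fall in Tgif1 KD cells and a rise on the arrays labelled Tgif1 OE, at -0.66 and 1.50 for Psmb8.

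Set directly against each other, the arrays labelled Tgif1 OE and Tgif2 OE differed in 5 of the 39 genes, 2 higher and 3 lower on the arrays labelled Tgif1 OE, beside 19.7% of all genes (2.25% higher and 17.4% lower). The all-gene median was -0.10 in this comparison and the median of the set was -0.0002. Psmb8 was higher by 0.36 ± 0.11 (adjusted p = 0.0324, 0.47 relative to the median) and Ifitm3 by 0.47 ± 0.15 (adjusted p = 0.0439, 0.57 relative to the median). Ifitm1 was lower by 0.61 ± 0.09 (adjusted p = 0.000406), Irf9 by 0.38 ± 0.09 (0.0127) and Rsad2 by 0.33 ± 0.10 (0.0305). The arrays labelled Tgif1 OE lay wholly below the others for Ifitm1, Irf9 and Rsad2 and wholly above for Psmb8, and overlapped them for Ifitm3. Only the Ifitm1 call held under every alternative, and it was the 1 call left with array pairs as a random block, where Irf9 gave an adjusted p of 0.074. Psmb8 was lost without any 1 of the arrays labelled Tgif1 OE, Tgif2 OE 1 or Tgif2 OE 2 (0.0506 to 0.0912), Ifitm3 without Tgif1 OE 1, 3 or 4 or Tgif2 OE 1 or 2 (0.0671 to 0.127), and Rsad2 without Tgif1 OE 1, 2 or 4 or Tgif2 OE 3 or 4 (0.0505 to 0.0799). After quantile normalization 6 were called, 5 higher and 1 lower, beside 9.97% of all genes (4.97% higher and 5% lower), with Irf9 (adjusted p = 0.0803) and Rsad2 (0.107) no longer among them. With replicate numbers as a block 11 were called, 4 higher and 7 lower, beside 31.8% of all genes (4.21% higher and 27.6% lower). Leaving out 1 array gave 2 calls without Tgif1 OE 1 or 4, 3 without Tgif1 OE 2 or 3 or Tgif2 OE 1 or 2, and 6 without Tgif2 OE 3 or 4. The 6 added under the block were Ifitm2 (adjusted p = 0.0206), Eif2ak2 (0.0161), Adar (0.0244), Trim25 (0.00475), Igtp (0.0158) and Ltb (0.0373).

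The 2 kinds of control cells also differed. Against BirA arrays the shControl arrays had 7 of the 39 genes called, 4 higher and 3 lower, beside 21.1% of all genes (13.6% higher and 7.5% lower), and the arm and the kind of control cannot be told apart. The count was 4 without shControl 1 and 5 without shControl 2. All genes split into 1689 higher and 930 lower as deposited and into 1260 higher and 1203 lower after quantile normalization (19.9%, with 10.2% higher and 9.71% lower), where 4 of the 39 were called in each direction. With columns shifted to one median the split turned to 843 higher and 2223 lower (24.7%, with 6.8% higher and 17.9% lower), and 3 of the 39 were called higher and 7 lower. Irgm1 was lower by 1.21 ± 0.17 on shControl arrays (adjusted p = 0.000181) and Ifitm1 by 0.49 ± 0.11 (0.00409), whose levels are given above. Stat2 was higher by 0.81 ± 0.09 on shControl arrays (adjusted p = 2.46e-05) and Igtp by 0.77 ± 0.15 (0.00194). For these 4 genes the 2 control groups did not overlap and the calls held under every alternative. Adar read 7.86 and 7.96 on shControl arrays, against 7.32, 7.30, 7.21 and 6.93 on BirA arrays, and was higher by 0.72 ± 0.20 (adjusted p = 0.0165), lost without shControl 1 (0.0777) or shControl 2 (0.133). H2-D1 was higher by 0.47 ± 0.12 (0.0105), lost without shControl 1 (0.0953) or shControl 2 (0.0621), with columns shifted to one median (0.0603) or with only the groups compared (0.0655). Bst2 was lower by 0.53 ± 0.15 (0.0248), lost without BirA 1 (0.0607), BirA 2 (0.0517), shControl 1 (0.131) or shControl 2 (0.134) or with replicate numbers as a block (0.0534).

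Other genes of the pathway were read from lists with 100 measured members, of 124 listed. In Tgif1 KD cells 12 of the 100 were called higher and 16 lower, a share of 28% beside 25.4% of all genes. On the arrays labelled Tgif1 OE 16 were higher and 6 lower, 22% beside 20.9%, and on those labelled Tgif2 OE 32 were higher and 4 lower, 36% beside 35.4%. The share of calls in these lists thus lay near that of all genes in each comparison. The counts per list below stand beside all-gene shares of 12.5% higher and 12.9% lower in Tgif1 KD cells. The same shares were 11.4% and 9.51% for Tgif1 OE and 28.7% and 6.69% for Tgif2 OE. The genes named next are those of the 3 largest called changes in each list whose call held under every alternative, a choice made after their values were seen. Their Tgif2 OE changes are as deposited, with the all-gene median of 0.12 included.

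Among 18 other antigen presentation genes, 4 were called higher and 2 lower in Tgif1 KD cells, 3 and 1 on the arrays labelled Tgif1 OE, and 8 and 1 on those labelled Tgif2 OE. Erap1, the aminopeptidase that trims peptides in the endoplasmic reticulum, rose by 1.76 ± 0.13 for Tgif1 OE (adjusted p = 7.17e-07) and by 1.32 ± 0.13 for Tgif2 OE (6.03e-06). In Tgif1 KD cells the chaperones Hspa5 and Calr rose by 0.49 ± 0.09 (adjusted p = 0.000652) and 0.41 ± 0.08 (0.00159). H2-Ab1, a class II chain, was higher on the arrays labelled Tgif2 OE by 0.88 ± 0.08 (1.5e-06), as was H2-Bl, a class I gene, by 0.63 ± 0.11 (0.000575). Of 33 other interferon-stimulated genes, 4 were called higher and 8 lower in Tgif1 KD cells, 5 and 3 for Tgif1 OE, and 12 and 2 for Tgif2 OE. Sp110, a nuclear body protein, was higher by 1.86 ± 0.17 in Tgif1 KD cells (adjusted p = 2.41e-06) and Parp12, a mono-ADP-ribosyltransferase, was lower (-1.45 ± 0.16, adjusted p = 8.88e-06). Irgm2, another immunity-related GTPase, rose by 1.00 ± 0.11 for Tgif1 OE (adjusted p = 1.3e-05) and by 0.59 ± 0.11 for Tgif2 OE (0.00059). Nmi, an interferon-induced protein, was higher for Tgif2 OE (0.58 ± 0.08, adjusted p = 0.000129). Lap3, a leucine aminopeptidase, was lower for Tgif1 OE (-0.61 ± 0.05, adjusted p = 1.54e-06).

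Of 12 receptors and kinases, 2 were called higher and 0 lower in Tgif1 KD cells, 3 and 2 for Tgif1 OE, and 6 and 1 for Tgif2 OE. Jak2, a kinase of the interferon gamma receptor, rose by 0.73 ± 0.13 in Tgif1 KD cells (adjusted p = 0.000606). Tyk2, a kinase of the type I receptor, was lower for Tgif1 OE (-0.55 ± 0.10, adjusted p = 0.000736) and for Tgif2 OE (-0.73 ± 0.10, adjusted p = 4.91e-05). Ifngr2, a chain of the interferon gamma receptor, and Jak1, a kinase of both receptors, rose for Tgif2 OE by 0.69 ± 0.12 (adjusted p = 0.000566) and 0.59 ± 0.12 (0.00164). Of 13 neighbours in the NF-kB and lymphotoxin pathway, 1 was higher and 1 lower in Tgif1 KD cells, 4 and 0 for Tgif1 OE, and 3 and 0 for Tgif2 OE. Birc3, a ubiquitin ligase of receptor complexes, rose by 0.65 ± 0.11 for Tgif1 OE (adjusted p = 0.000442) and by 0.90 ± 0.11 for Tgif2 OE (2.02e-05). Rela, the NF-kB subunit p65, rose by 0.44 ± 0.06 (9.75e-05) and 0.39 ± 0.06 (0.000177) in the same 2 comparisons. Among 11 nucleic acid sensing genes, 1 was higher and 4 lower in Tgif1 KD cells, and 1 was higher and 0 lower in each overexpression comparison. Tlr3, an endosomal sensor of double-stranded RNA, was higher for Tgif2 OE (0.53 ± 0.14, adjusted p = 0.00862). Zbp1, a sensor of left-handed nucleic acid, was lower (-0.75 ± 0.16, adjusted p = 0.00233) and Rnf135, a RIG-I ubiquitin ligase, higher (0.52 ± 0.12, adjusted p = 0.00454) in Tgif1 KD cells. Of 13 further transcription factors of the pathway 0 were higher and 1 was lower in Tgif1 KD cells, 0 were called in either direction by limma for Tgif1 OE (0 also at an unadjusted p under 0.05), and 2 were higher and 0 lower for Tgif2 OE. The 1 lower was Nfyc, a CCAAT-box factor subunit (-0.49 ± 0.09, adjusted p = 0.000541).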

How the data were processed

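RNA of J1 ES cells was measured on 16 arrays in 5 groups. The authors deposited log2 intensities, 1 per probe set and array, and per the submitters' processing notes RMA made them. For the Tgif2 samples limma is named there too, without versions. Values lay between 2.19 and 14.79, and the number of columns of no sample was 0. Of 22690 probe sets, 64 were controls, 20380 had 1 symbol in the 2016 platform annotation, 691 had several and 1555 had none. Each of 12393 genes was read from its probe set with the highest mean, with no filter on low signal. A probe set with a single symbol may still bind close relatives of a gene.

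A model with 1 mean for each of the 5 groups was fitted over the 16 arrays (lmFit and eBayes, limma 3.58.1, R 4.3.3), with Benjamini-Hochberg adjustment over all genes and a threshold of 0.05. The script was tested on simulated data. Alternatives were quantile normalization, columns shifted to one median, the mean of a gene's probe sets, leaving out the dimmest 33.3% of genes, a variance trend with robust moderation, only the groups compared, replicate numbers or array pairs as blocks, each array pair alone, and each array left out. With 2 or 4 arrays per group, the number of arrays limits the precision.

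The members and lists were chosen with earlier results of these data known. Values on every array were given for the 6 called members with the largest absolute change in each comparison and for Stat2, Irf9, Irf1, Irf3, Irf7, B2m, H2-K1, H2-D1, Tap1, Psmb8 and Psmb9. Pathway genes were named from the 3 largest called changes per list. Arrays with the same replicate number were checked for pairing: their deviations from group means correlated at 0.32 to 0.56 over 12 comparisons in the overexpression arm, with the own number the best match in 2 of 12, and at -0.0044 in the knockdown arm. Every best match in the overexpression arm lay within the same array pair. The check therefore showed no pairing by replicate number in either arm. The block of replicate numbers was still fitted over the arrays of both arms. Calls that passed only with this block rest on a pairing that the check did not show. Some of its calls also passed with the array pair as a fixed block, which needs no such pairing. They were Ifit2, Ifih1 and H2-K1 for Tgif1 OE against BirA (limma adjusted p of 0.00046 to 0.0392). The 6 genes added between Tgif1 OE and Tgif2 OE also passed there (0.00145 to 0.0225). With array pairs as a random block these calls did not pass. Promoter windows came from RefSeq tables of build GRCm38.p6. Python 3.11.15 drew the figures.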

Additional observations from a re-analysis of the deposited data

Results flagged for a closer look

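Tap2, a chain of the peptide transporter, read 6.41 on replicate 1 labelled Tgif2 OE, while the other replicates of that group read 6.09 to 6.13. The gap to its nearest neighbour was 0.859 of the group's range, above the critical value of Dixon's test for 4 arrays. It was the only such value among 117 groups of 4 arrays tested over the 39 genes, and chance alone gives about 1 in 20. The Tap2 call on the arrays labelled Tgif2 OE held without that array.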

How the results depend on the processing

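Of the alternatives tried for single genes of the set, 3856 values kept their side of the threshold (206 of them, all of genes not called, with the sign turned), 201 lost a call, 198 gained one and 2 reversed. The reversed values were Oas1a on the arrays labelled Tgif2 OE against BirA within replicates 3 and 4, at -0.27 (adjusted p = 0.00772, against 0.20 over all replicates), and Ltb on shControl arrays against BirA within replicates 1 and 2, at 0.27 (adjusted p = 0.0469, against -0.06).

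Counts of called genes moved as follows, and the cause was not tested. For Tgif1 KD against shControl, 11 genes of the set became 18 with only the groups compared, 18 with replicate numbers as a block, 21 when the overexpression groups kept only replicates 1 and 2 or only replicates 3 and 4, and 5 to 7 with 1 array left out. All genes called there went to 4975 and 5185 under these same restrictions and to 2012 to 2161 with 1 array left out, beside 3146. For the arrays labelled Tgif1 OE against BirA, 2587 genes became 4101 with the array pair as a fixed block, 1419 with it as a random block and 2053 to 2372 with 1 array left out, and the set's 20 became 14 with the random block and 16 to 20 with 1 array left out. For the arrays labelled Tgif2 OE against BirA, 4388 became 2490 with the random block and 3750 to 4215 with 1 array left out, and the set's 18 became 12 with the random block, 13 with only the groups compared and 14 to 19 with 1 array left out. Between the arrays labelled Tgif1 OE and Tgif2 OE, 2439 genes became 1236 after quantile normalization, 1156 with columns shifted to one median, 3940 with replicate numbers as a block, 4444 with the pair as a fixed block, 589 as a random block and 1729 to 2121 with 1 array left out. The set's 5 became 11 with replicate numbers as a block, 13 with the fixed pair, 14 within replicates 1 and 2, 1 with the random pair and 2 to 6 with 1 array left out. For the Tgif1 KD effect minus the Tgif1 OE effect, 3418 genes became 2495 to 3405 and the set's 20 became 14 to 18 with 1 array left out. For shControl against BirA, 2619 genes became 4006 with replicate numbers as a block, 4339 with the fixed pair, 4527 and 4082 within replicates 1 and 2 and within replicates 3 and 4, and 1088 to 2616 with 1 array left out. The set's 7 became 11 with replicate numbers as a block, 11 with the fixed pair, 18 within either pair of replicates and 4 to 8 with 1 array left out.

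Replicate numbers paired no arrays of the knockdown arm (r = -0.0044). There the block added Irf3, Mx1, Eif2ak2, Trim25, B2m, H2-K1 and H2-D1 to the calls of Tgif1 KD against shControl. It added Ifitm2, Eif2ak2, B2m and Ltb to the difference of effects, and for shControl against BirA it added Irf3, Irf9, Eif2ak2, Psmb9 and B2m and ended Bst2 (adjusted p = 0.0534). In the overexpression arm the block changed no call of the set other than those given in the report. Of the 39 genes, 12 lay among the dimmest 33.3% on the array, where signal near background limits the change that can be seen.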

Other observations

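Among the pathway lists, shControl arrays set against BirA arrays had 15 genes called higher and 9 lower of 100, a share of 24% beside 21.1% of all genes (13.6% higher and 7.5% lower). Jak2, a kinase of the interferon gamma receptor, was higher by 0.83 (adjusted p = 0.000147 in limma), Il10rb, a receptor chain shared by type III interferon and interleukins, by 0.81 (0.000289) and Ifnar2, a chain of the type I receptor, by 0.60 (0.00145). Ikbke, a kinase of nucleic acid sensing, was higher by 1.03 (0.000459) and Irgm2 by 0.93 (0.000198). H2-Ke6, which lies in the MHC and encodes a hydroxysteroid dehydrogenase, was higher by 0.56 (0.000966). These calls held under every alternative, and they concern control cells of different arms.

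Between the arrays labelled Tgif1 OE and Tgif2 OE, 3 of the 100 were called higher and 13 lower, a share of 16% beside 19.7% of all genes (2.25% higher and 17.4% lower). H2-Ab1, a class II chain, was lower on the arrays labelled Tgif1 OE (change of -0.93, adjusted p = 2.9e-06) under every alternative. H2-Bl, a class I gene, was lower there (change of -0.55, adjusted p = 0.00403), a call absent within replicates 3 and 4 (0.0542) and with array pairs as a random block (0.0807).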
